A study of Bos taurus with 8 samples.

Results

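The 10 genes described here, of 9155 with a probe set of their own on the array, encode chemokines, the secreted proteins that draw leukocytes into tissue, and the inflammatory cytokines interleukin 1 alpha, interleukin 1 beta and tumour necrosis factor. Every probe set that the platform annotation pairs with exactly 1 of these symbols was taken, which gave 13 of the 24016 probe sets tested on the array: 2 each for CCL2, IL1A and IL1B and 1 each for CXCL8, CXCL2, CXCL5, CXCL10, CCL5, CCL20 and TNF. A probe set is a group of short probes whose signals are summarised into 1 level. Whether the probes match the named gene alone was not checked, as no probe sequences were used. No probe set with several symbols held one of these genes. The values come from 8 biopsies of lactating mammary gland of 4 Holstein cows (Bos taurus), taken from each animal both 12 h after milk removal, when the gland is called full, and at 0 h, when it is called empty. The question of the study is what milk accumulation does to gene expression, and each full gland was set against the empty gland of its own cow. The labels name no other treatment, genotype or age. Which biopsy came first, and from which gland of the udder, is not stated, so the state of the gland cannot be told apart from any such difference.

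Chemokines bind G protein-coupled receptors on leukocytes, and their classes act on different cells. CXCL8, CXCL2 and CXCL5 act on neutrophils, CCL2 on monocytes, CCL5 and CXCL10 mainly on T cells and CCL20 on cells that carry CCR6. In the udder, mammary epithelial cells and resident macrophages make several of them when bacterial products bind Toll-like receptors, and the NF-kappaB transcription factors, which IL1 and TNF also activate, drive many of these genes.

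CCL2 had the widest range of levels over the 8 arrays among the 13 probe sets, and its direction differed between cows. On its brighter probe set it was higher in full gland by 3.73-fold in cow 4, by 2.23-fold in cow 2 and by 1.49-fold in cow 3, and it was 2.02-fold lower in cow 1. CXCL5 was higher in full gland by 2.18-fold in cow 2, by 1.55-fold in cow 4 and by 1.08-fold in cow 3 and was 1.28-fold lower in cow 1, with levels that were dim in several arrays. The transcripts of IL1A, IL1B, TNF, CXCL8, CXCL2 and CCL20 lay near background in both states. None of the 13 probe sets passed the test of full against empty gland.

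All levels are log2 values made by the authors with RMA, on which a difference of 1 is a 2-fold difference. Arrays give no read depth, and precision is limited by their number. Array medians were between 7.08 and 7.24. The full glands of cows 2 and 4 were the least like the others: their median correlation with the other arrays was 0.969 and 0.9753, while every other array reached at least 0.9856. Over all probe sets, the full minus empty values had an SD of 0.19, 0.38, 0.17 and 0.30 in cows 1 to 4. Genes of luminal mammary epithelium, such as the caseins and the transcription factor ELF5, had a median level of 13.25 to 13.52 in full and 13.35 to 13.47 in empty gland, with all 10 measured and none near background. In these pieces of whole tissue, fewer cells of a type and less RNA per cell cannot be told apart.

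The table has no detection values, so background was read from 85 probe sets of 46 genes that are restricted to other tissues, such as retina, testis and liver. A member was called near background if its mean level over the 8 arrays was at or below their 90th percentile, 7.21, a level that 51.0% of all probe sets did not exceed. That percentile is pulled up by a few bright probe sets of the list, such as one of POMC at 13.63, and the 75th percentile of the list was 6.04. By the higher level 10 of the 13 member probe sets were near background, and by the lower level 8 were. Only the 2 probe sets of CCL2 and that of CCL5 were above 7.21, while CXCL5 at 6.80 and CXCL10 at 6.86 lay between the levels. The brightness of a probe set depends on its own probes, so levels of different genes are not compared.

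**Figure D1:**
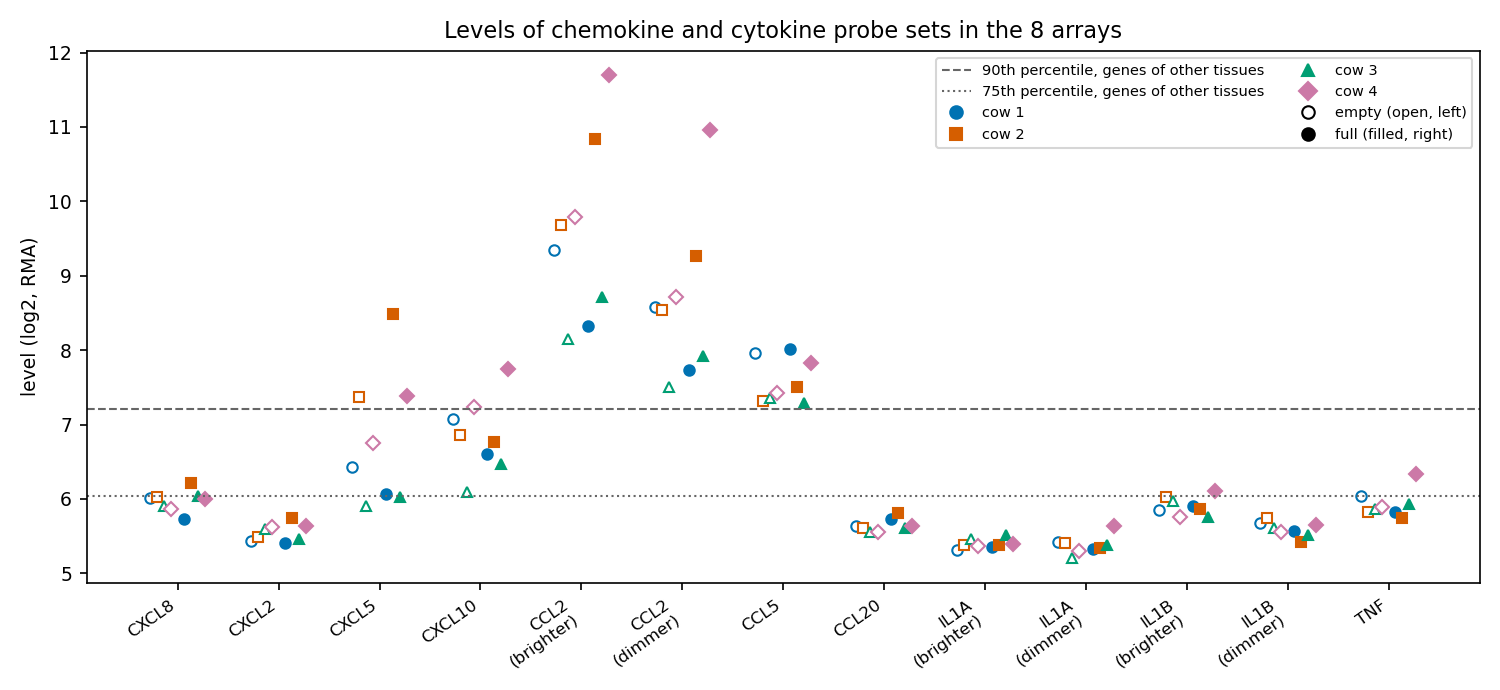
Level (log2, RMA) of each of the 13 probe sets in the 8 arrays, with open symbols for empty gland, filled symbols for full gland and 1 symbol shape per cow. The dashed line at 7.21 and the dotted line at 6.04 are the 90th and 75th percentiles of genes restricted to other tissues. CCL2 and CCL5 lie above the dashed line in all 8 arrays, and 8 probe sets have means below the dotted line.

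In the limma fit, which had cow as its block, after adjustment over the 24016 probe sets 0 probe sets passed at 0.05 (0% called), and 600 had an unadjusted p under 0.05 (2.5%). Among the 13 member probe sets 0 passed and 0 had an unadjusted p under 0.05 in limma. Their adjusted p was 0.993, or 0.999 for the brighter IL1B probe set. The mean difference was positive for 12 of the 13 and negative for 1, with a median of 0.08 log2, where 49.9% of all probe sets had a positive difference and their median was 0.00. The probe sets of 1 gene are not independent of each other, and the members share the same 8 arrays. In no member did the full and empty ranges lie apart, which 0.812% of all probe sets showed. CCL20 was higher in full gland in all 4 cows, as were 4.22% of all probe sets. No member was lower in all 4 cows, as 5.97% of all probe sets were.

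How many members were higher in full gland varied from cow to cow. In cow 4 all 13 probe sets were higher in full gland, where 53.5% of all probe sets were higher, and their median difference was 0.35. In cow 1, 9 of the 13 were lower and the median was -0.10, with 41.7% of all probe sets higher. In cow 2, 7 were higher and 6 lower with a median of 0.20, where 50% of all probe sets were higher. In cow 3, 9 were higher and 4 lower with a median of 0.06, where 51.1% of all were higher. Each of these comparisons rests on 1 full and 1 empty sample and has no replicate check.

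**Figure D2:**
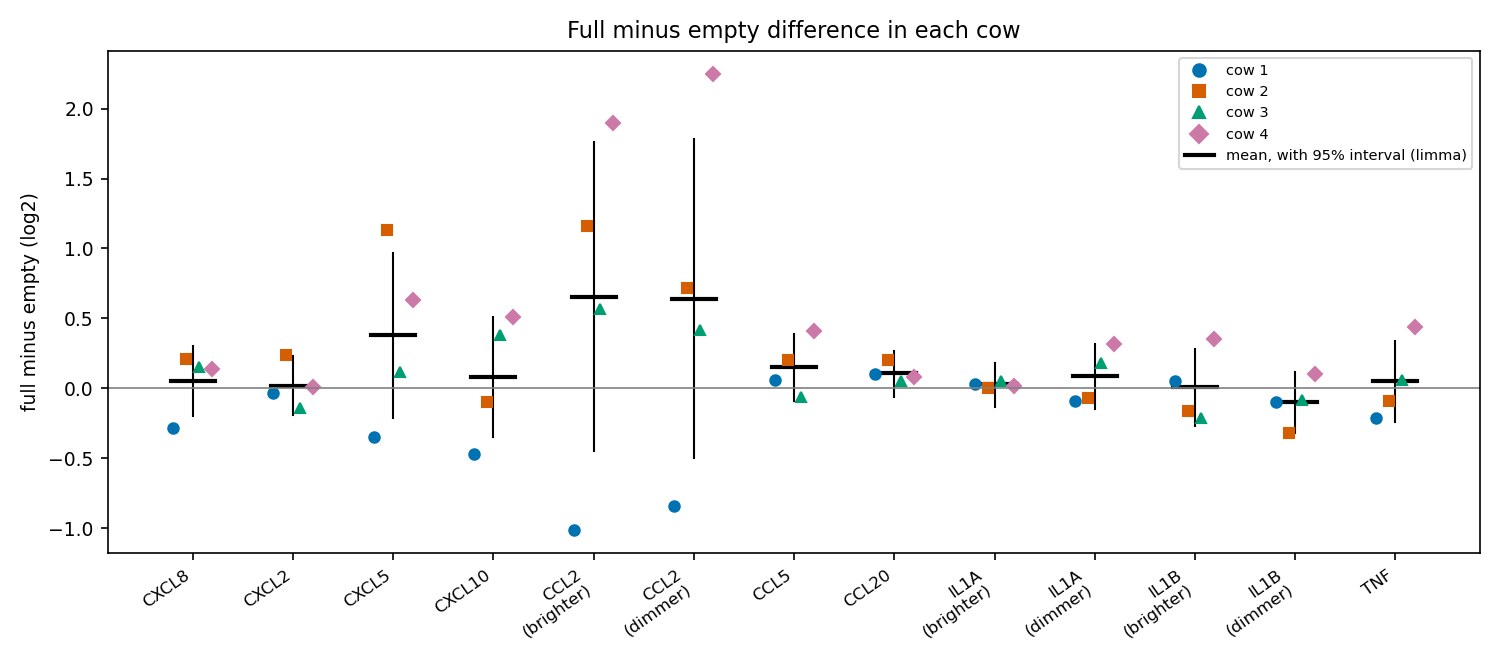
Full minus empty difference (log2) of each probe set in each cow, with the mean over 4 cows as a thick bar and limma's 95% interval as a thin line. The cow 4 points of CCL2 reach 1.90 and 2.25 and the cow 1 points lie at -1.01 and -0.84, and every interval includes 0.

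CCL2, also known as monocyte chemoattractant protein 1, draws monocytes and some T cells. On its brighter probe set the level in empty gland was 9.34, 9.68, 8.15 and 9.79 in cows 1 to 4. In full gland it was 8.32, 10.84, 8.72 and 11.70. The empty values lay within 1.65 log2 of each other and the full values spread over 3.37 log2, with cows 2 and 4 above every empty value and cows 1 and 3 below 3 of them, so the groups overlapped. The mean was 9.89 ± 1.63 (SD, n = 4) in the full and 9.24 ± 0.75 in the empty samples, a difference of 0.65 ± 0.45 log2 (SE, n = 4 cows; this and the following SEs are moderated by limma, which borrows from other probe sets). This is 1.57-fold with a 95% interval of 0.73-fold to 3.39-fold and did not pass (adjusted p = 0.993 in limma).

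The dimmer CCL2 probe set had the same sign in each cow as the brighter, and the 2 correlated at r = 0.966 over the 8 arrays. It was at 8.58, 8.54, 7.50 and 8.71 in the empty glands of cows 1 to 4 and at 7.73, 9.26, 7.92 and 10.96 in the full ones. The empty glands of cows 1, 2 and 4 were nearly equal on it, and the full gland of cow 4 was the highest of the 8. Its difference was 0.64 ± 0.46 log2, with a 95% interval of -0.50 to 1.78 (adjusted p = 0.993 in limma). Both probe sets are built on the same transcript record and do not count as separate evidence.

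Among all 24016 probe sets, CCL2 was near the end of the list of differences in each cow. In cow 4 its dimmer and brighter probe sets ranked 3 and 13 from the highest. In cow 1 the brighter ranked 22 from the lowest and the dimmer 48. In cow 3 they ranked 85 and 355 from the highest, and in cow 2, 176 and 876. The 2 CCL2 probe sets were the only members more than 2-fold higher in cow 4, where 1.1% of all probe sets were. In cow 2 the brighter CCL2 probe set and CXCL5 were, against 1.29% of all probe sets. In cow 1 the brighter CCL2 probe set was the only member more than 2-fold lower, against 0.0916% of all. Over all probe sets, cow 4 had 264 more than 2-fold higher and 13 more than 2-fold lower. Cow 2 had 311 and 250, and cow 1 had 5 and 22.

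**Figure D3:**
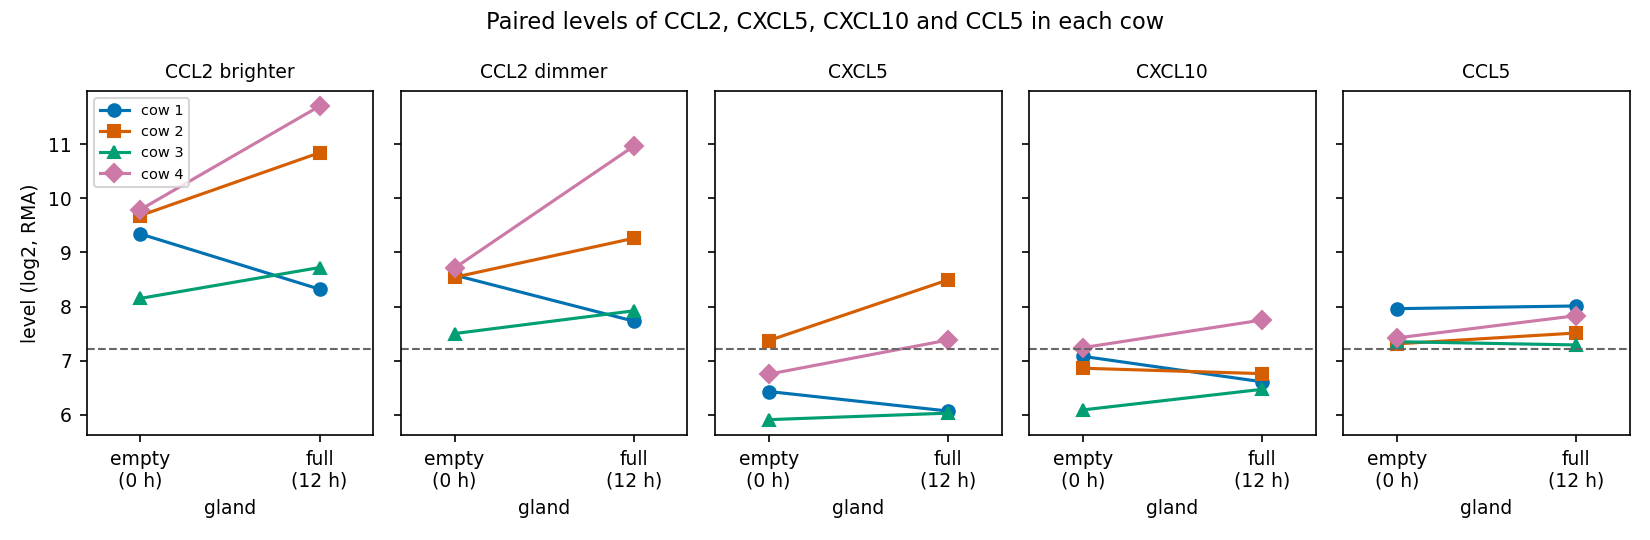
Level (log2, RMA) of the 2 CCL2 probe sets, CXCL5, CXCL10 and CCL5 in empty (0 h) and full (12 h) gland, with 1 line per cow and the dashed background level at 7.21. Lines for CCL2 and CXCL5 go up in cows 2, 3 and 4 and down in cow 1.

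The mean CCL2 difference depended on which cow was counted. Without cow 1 it was 1.21 on the brighter probe set and 1.13 on the dimmer. Cow 1 was the only cow with CCL2 lower in full gland, so the remaining signs agree because of that choice. Both probe sets then had an unadjusted p under 0.05 but an adjusted p = 0.832 in limma. Over all 24016 probe sets, 1120 had an unadjusted p under 0.05 in that fit, against 600 with all cows. Without cow 4 the mean CCL2 difference was 0.24 and 0.10. Without both cows whose full libraries stood apart, cows 2 and 4, it was -0.22 and -0.21. Over the 11 alternatives the adjusted p of either probe set lay between 0.832 and 1.

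CCL5 (RANTES), which attracts T cells and other leukocytes and is made by activated T cells among others, spanned 0.72 log2 over the 8 arrays. It was at 7.96, 7.31, 7.35 and 7.42 in the empty glands of cows 1 to 4, and at 8.01, 7.51, 7.29 and 7.83 in the full ones. Cow 1 was the highest in both states and the groups overlapped. The difference was 0.15 ± 0.10 log2, with a 95% interval of 0.942-fold to 1.31-fold (adjusted p = 0.993 in limma). It was higher in full gland in 3 of the 4 cows, most in cow 4, at 0.41.

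CXCL5, a neutrophil chemokine made by epithelial cells, spanned 2.58 log2 over the 8 arrays. It was at 6.43, 7.37, 5.91 and 6.75 in the empty glands of cows 1 to 4, and at 6.07, 8.49, 6.03 and 7.38 in the full ones. Both samples of cow 2 and the full gland of cow 4 were above the background level of 7.21, and the other 5 arrays were below it. The means were 6.99 ± 1.18 (SD, n = 4) in the full and 6.61 ± 0.61 in the empty samples, and the difference of 0.38 ± 0.24 log2 did not pass (95% interval -0.21 to 0.97, adjusted p = 0.993 in limma). Without cow 1, the only cow of opposite sign, it was 0.62 (unadjusted p under 0.05, adjusted p = 0.832 in limma). In that fit 1120 of all 24016 probe sets had an unadjusted p under 0.05. The CXCL5 difference was 0.13 without cow 2 and -0.12 without cows 2 and 4.

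The other neutrophil chemokines were near background. CXCL8, interleukin 8, a main neutrophil attractant of the inflamed udder, was at 6.01, 6.02, 5.90 and 5.87 in the empty glands of cows 1 to 4 and at 5.73, 6.22, 6.04 and 6.00 in the full ones. Its difference was 0.05 ± 0.10 log2 (95% interval -0.20 to 0.30). CXCL2 lay between 5.41 and 5.74 in all 8 arrays, with a difference of 0.02 ± 0.09. The groups overlapped for both, neither passed (adjusted p = 0.993 each in limma), and near background a fold change is understated. CXCL8 and CXCL5 lie close together in the RefSeq gene order of ARS-UCD2.0, as do CXCL2 and its relatives CXCL3 and GRO1.

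CXCL10, an interferon-induced chemokine for T cells that carry CXCR3, was at 7.08, 6.86, 6.09 and 7.24 in the empty glands of cows 1 to 4 and at 6.61, 6.76, 6.47 and 7.75 in the full ones. Cow 4 was the highest and cow 3 the lowest in both states. The full gland was higher in cows 3 and 4, by 0.38 and 0.51, and lower in cows 1 and 2, by -0.47 and -0.10, so that the mean difference was 0.08 ± 0.17 (adjusted p = 0.993 in limma). The sign of that mean turned without cow 3 and without cow 4, at -0.02 and -0.06.

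CCL20, which attracts dendritic cells and lymphocytes with CCR6, was the member with the same sign in all 4 cows, but it lay near background at 5.56 to 5.81. It was higher in full gland by 0.10, 0.20, 0.05 and 0.08 in cows 1 to 4. Full and empty values overlapped, and the mean of 0.11 ± 0.07 log2 did not pass (adjusted p = 0.993 in limma).

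The inflammatory cytokines themselves gave little signal. IL1A, the membrane-linked interleukin 1, lay between 5.31 and 5.51 on its brighter probe set and between 5.20 and 5.63 on the dimmer, with differences of 0.03 ± 0.06 and 0.09 ± 0.10 log2. IL1B, the secreted form that inflammasomes activate, lay between 5.76 and 6.11 on its brighter and between 5.42 and 5.75 on its dimmer probe set. Its probe sets went opposite ways, at 0.01 ± 0.11 and -0.10 ± 0.09 log2, and the positive sign turned to -0.01 under median centring and after repeated quantile normalization. TNF was at 6.04, 5.83, 5.87 and 5.89 in the empty glands of cows 1 to 4 and at 5.83, 5.75, 5.93 and 6.33 in the full ones. The full gland of cow 4 was the highest of these, and the mean difference was 0.05 ± 0.12. Over the 8 probe sets at or below 6.04, those of CXCL8, CXCL2, CCL20, IL1A, IL1B and TNF, the 95% intervals together spanned -0.32 to 0.34 log2, and the adjusted p of each was 0.993 or 0.999 in limma. A difference in transcripts below the sensitivity of the probes was not detectable.

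Between cows, the 4 cow means spanned 2.31 log2 for the brighter CCL2 probe set, 1.96 for CXCL5, 1.22 for CXCL10 and 0.66 for CCL5. In an F-test on the cows from the same limma fit, 0 of the 13 member probe sets passed, against 0.437% of all probe sets, and 4 had an unadjusted p under 0.05, against 14.8% of all. The 4 were CXCL5 (adjusted p = 0.178), CCL5 (adjusted p = 0.231), CXCL10 (adjusted p = 0.25) and the brighter CCL2 probe set (adjusted p = 0.301). CXCL5 averaged 7.93 in cow 2 and 5.97 in cow 3, with cows 4 and 1 between them at 7.07 and 6.25. CCL2 averaged 10.75 in cow 4 and 10.26 in cow 2, against 8.83 in cow 1 and 8.44 in cow 3. CCL5 was instead highest in cow 1, at 7.99, and between 7.32 and 7.62 in the other cows. The 2 samples of a cow are not separate animals, and the comparison is between these 4 cows.

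Chemokine and cytokine receptors were described from a list of 32 genes, which also holds receptors of other ligands. Of these, 21 were measured and 15 of the 21 (71.4%) were near background, against 33.2% of all genes. Among receptors of the member chemokines, the neutrophil receptor CXCR1 lay at 5.66, the CXCL10 receptor CXCR3 at 5.97 and CCR3, which binds CCL5, at 5.81, while CXCR2, CCR2 and CCR6 were not analysed here. In full gland 19 of the 21 were higher and 2 lower, with a median of 0.09 log2, against a median of 0.00 and 48.6% higher over all genes, and none passed (0 with an unadjusted p under 0.05 in limma). Their medians in cows 1 to 4 were -0.05, 0.16, -0.01 and 0.36. IL10RB, a chain of the interleukin 10 receptor, was at 8.37 ± 0.13 (SD, n = 4) in the full and 8.22 ± 0.13 in the empty samples, a difference of 0.15 ± 0.10. ACKR3, a scavenger receptor for CXCL12, differed by 0.33 ± 0.27, with 1.34 in cow 4 and -0.40 in cow 1. The TNF receptor TNFRSF1A and the interleukin 1 receptor IL1R1 were above background and differed by 0.03 and 0.02.

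In the signalling pathway known to induce many of the members, 26 of 37 measured genes of Toll-like receptor and NF-kappaB signalling (70.3%) were above 7.21, against 66.8% of all genes. Of these 37, from a list of 50, 19 were higher and 18 lower with a median of 0.03, where 48.6% of all genes were higher. None passed (0 with an unadjusted p under 0.05 in limma). The adaptor MYD88 was at 10.29 ± 0.19 (SD, n = 4) in the full and 10.54 ± 0.18 in the empty samples, a difference of -0.24 ± 0.10. CD14, the coreceptor for bacterial lipopolysaccharide, differed by -0.35 ± 0.17, and its second probe set by -0.38. Without cow 2 the differences were -0.15 for MYD88 and -0.14 for CD14, and without cows 2 and 4 they were -0.11 and -0.09. MYD88 and CD14 were lower in cows 1, 2 and 4 and differed by 0.01 in cow 3 on these brighter probe sets, and the adjusted p of each was 0.993 in limma. NFKBIA, the inhibitor that NF-kappaB itself induces, differed by 0.13 ± 0.08, and the adhesion molecule ICAM1 by 0.23 ± 0.14. Of other genes above background in this list, VCAM1 differed by 0.31, BIRC3 by 0.00, NFKBIE by -0.01 and NFKBIZ by -0.03.

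Other chemokines and cytokines were described from lists of the same kind. Of 26 other chemokines 19 were measured, with 12 higher and 7 lower, a median of 0.14 log2 and none passing (0 with an unadjusted p under 0.05 in limma). CCL14 and CCL26, named for the smallest unadjusted p above background, differed by -0.25 ± 0.14 and -0.30 ± 0.18, each lower in 3 of the 4 cows. Of 27 other cytokines 23 were measured and 16 were near background, IL6 at 5.51 among them. In that list 16 were higher and 7 lower with a median of 0.05, and none passed (0 with an unadjusted p under 0.05 in limma). Over all genes 48.6% were higher, with a median of 0.00, beside 63.2% of the other chemokines and 69.6% of the other cytokines. IL18, a relative of IL1B, was at 8.21 ± 0.75 (SD, n = 4) in the full and 7.76 ± 0.39 in the empty samples, a difference of 0.46 ± 0.23 in which 1.26 came in cow 4 and 0.61 in cow 2. CSF1, the growth factor of macrophages, differed by 0.29 ± 0.15 and was higher in cows 2, 3 and 4. Its mean level of 7.22 was barely above 7.21, and both glands of cows 1 and 3 were below that level. A dimmer probe set of CSF1 differed by 0.05.

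The medians of leukocyte and fibroblast marker lists, like CCL2, were higher in the full gland of cow 4 and lower in that of cow 1. The median difference of 19 measured myeloid and neutrophil genes, of 26 listed, was -0.24, 0.07, -0.15 and 0.73 in cows 1 to 4, and their median level spanned 7.42 to 8.52 in full and 7.77 to 7.93 in empty gland. Of the 19, 16 were higher in cow 4 and 4 in cow 1, where 53.5% and 41.7% of all probe sets were higher. Over all genes the median difference was -0.05, 0.03, -0.02 and 0.02 in cows 1 to 4. The macrophage genes CD68, MPEG1 and AIF1 differed by 1.41, 1.29 and 0.64 in cow 4 and by -0.76, -0.37 and -0.31 in cow 1, whereas CD14 was lower in both, at -0.24 and -0.20. Of the neutrophil genes, ITGAM, ELANE, MPO, CXCR1 and S100A8 were near background, while S100A12 at 8.18 and S100A9 at 7.30 were not. S100A12 differed by 1.55 in cow 4 and by -0.75 in cow 1, and S100A9 by 0.11 and 0.40. For T and natural killer cells, with 15 of 19 measured and a median level of 6.63 to 7.18 in full and 6.67 to 7.07 in empty gland, the medians were -0.12, 0.32, -0.04 and 0.36. For fibroblast and matrix genes, with 10 of 12 measured and a median level of 11.02 to 11.94 in full and 11.22 to 11.71 in empty gland, they were -0.23, 0.16, -0.08 and 0.58. CCL2 was also higher in cow 3, by 0.57 and 0.42. In that cow the myeloid and fibroblast medians were -0.15 and -0.08. Of the 19 myeloid genes 6 were higher there, CD68 at 0.32 among them, and of the 10 fibroblast genes 3 were. The part of these cells in the CCL2 and CXCL5 values was not tested.

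Among the remaining cell types, the myoepithelial median was also highest in cow 4. The 6 of 10 B and plasma cell genes measured had medians of -0.12, 0.03, -0.08 and 0.34 in cows 1 to 4, with levels of 6.33 to 6.80 in full and 6.23 to 6.78 in empty gland. The 9 of 10 endothelial genes had medians of -0.20, -0.30, 0.03 and 0.12, with levels of 8.46 to 8.81 in full and 8.30 to 8.67 in empty gland. The 9 of 10 myoepithelial genes had -0.01, 0.18, -0.15 and 0.67, with levels of 10.19 to 10.70 in full and 9.93 to 10.36 in empty gland. Cow 4 had the highest median in each of the 6 lists outside the luminal epithelium. The 10 luminal epithelial genes had medians of 0.04, 0.06, 0.01 and 0.02, but these are set by genes such as CSN3 at 13.86 and PAEP at 14.39, close to the highest values of the arrays (14.32 to 14.43), where a difference may not register. Dimmer luminal genes differed more: KRT8, a keratin of luminal cells, by -0.72, 0.11, 0.25 and 1.21 in cows 1 to 4, and its partner KRT18 by -0.04, 1.19, -0.05 and 1.36. The adhesion molecule CDH1 differed by 0.57 in cow 4.

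**Figure D4:**
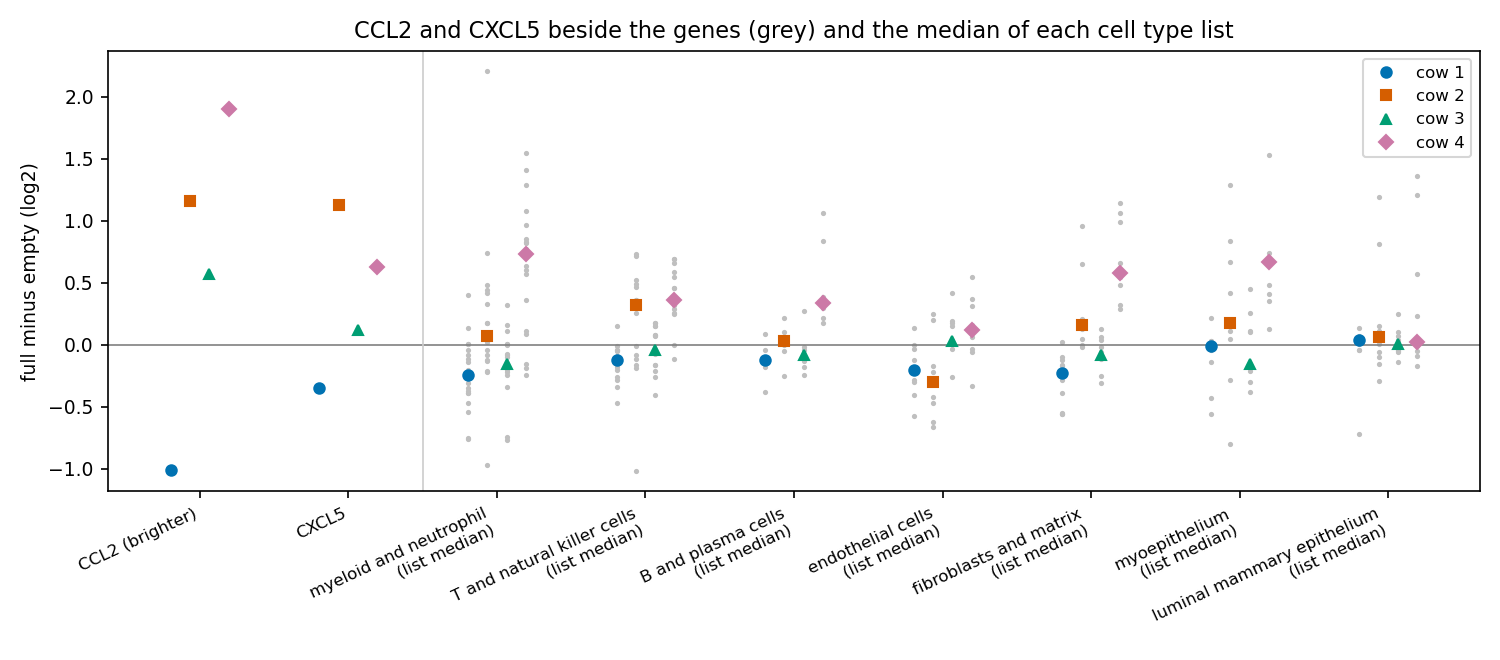
Full minus empty difference (log2) in each cow for CCL2 (brighter probe set) and CXCL5, beside each cell type list, with grey dots for its genes and coloured symbols for its median. The cow 4 points of the myeloid, fibroblast and myoepithelial lists lie at 0.73, 0.58 and 0.67, and the 4 luminal medians lie between 0.01 and 0.06 while single luminal genes reach 1.36 (KRT18) in cow 4.

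Genes whose levels ran most like those of the brighter members over the 8 arrays were searched among 6116 genes above background, as a description. The points share animals, arrays and normalization, and the highest of so many correlations over 8 arrays is high by its choice. For CCL2 (brighter probe set) the closest were the nuclear receptor NR2F2 (r = 0.991), the actin-linked adaptor AFAP1L2 (r = 0.99) and the coat protein SEC23A (r = 0.987). NR2F2 spanned 0.58 log2 over the arrays where CCL2 spanned 3.55. For CCL5 they were MS4A8 (r = 0.988), LOC338050 (r = 0.966) and PIP4K2A (r = 0.961). CXCL5 was added by hand after its values were seen, while CXCL10, which also lies between the background levels, was not. For CXCL5 the closest of 6117 genes were POLA1 (r = 0.991), NAP1L5 and RBM43 (r = 0.984 each).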

How the data were processed

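Total RNA was primed with oligo(dT) and hybridised as biotinylated cRNA to 8 single-colour arrays, per the labels' protocols. The deposited values are log2 levels per probe set that the authors made with RMA (background correction, quantile normalization and probe summary), per the submitters' processing notes, which state no version. Because quantile normalization makes all arrays' distributions alike, a change common to most genes would be removed. Values were used as deposited, without 112 platform control probe sets.

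Symbols came from the platform annotation. In the RefSeq genes of ARS-UCD2.0, 12 of the 13 member probe sets matched by entrez number and CXCL2 by accession only. No sequence was used, and coordinates served only to put the RefSeq genes in order. A gene outside the members was represented by its brightest probe set with 1 symbol.

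limma 3.58.1 in R 4.3.3 (lmFit, eBayes, two-sided, 3 residual and 2.81 prior degrees of freedom) was fitted to all 24016 probe sets with terms for state and cow, and p-values were adjusted over the whole table (Benjamini-Hochberg, threshold 0.05). Cow was a block because the descriptions name both samples of each cow. The pairing was checked on deviations from group means: full and empty gland of the same cow correlated at r = 0.457, 0.319, 0.597 and 0.525, and no full gland correlated above -0.0311 with another cow's empty gland. The negative values between cows are partly built in, because deviations from the mean of a group cancel out over its 4 cows. On simulated data the model recovered 61.2% of 1.5-fold and 97.2% of 2-fold changes with 6.2% false calls; its noise was alike in all cows, which that of the real data was not, so these shares are not the power reached here.

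Beyond the members, the text names 2 genes of each pathway list with the smallest unadjusted p among those above background, and the 3 genes most correlated with each of up to 3 members above background. Other list genes were named after their values were seen. Members, lists and alternatives were chosen with earlier results of these data known. The alternatives were other cow terms, median centring, repeated quantile normalization, only brighter probe sets, a trended robust prior, each replicate left out, cows 2 and 4 left out and other background levels. Tables were made with pandas 2.3.3 in Python 3.11.15.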

Additional observations from a re-analysis of the deposited data

Results flagged for a closer look

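In 63 groups of 4 values (levels in full gland, levels in empty gland and full minus empty differences of the named probe sets), 3 had a sample whose gap to its nearest neighbour took more of the range than Dixon's critical value allows, where chance gives about 1 in 20 groups. The CXCL8 difference of cow 1, at -0.28, lay apart from 0.14 to 0.21 in the other cows (gap 0.86 of the range), on a probe set near background. The empty gland of cow 3 was at 7.50 on the dimmer CCL2 probe set, against 8.54 to 8.71 in the other cows (0.861). The empty gland of cow 1 was at 7.96 for CCL5, against 7.31 to 7.42 in the other cows (0.835).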

How the results depend on the processing

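No call of full against empty gland was made or gained for the 13 member probe sets, the 100 pathway genes or all probe sets under any of the 11 alternatives, and the adjusted p of the members lay between 0.823 and 1. With no replicate block 0 probe sets passed and 220 had an unadjusted p under 0.05, and 0 members passed. The count of probe sets that differed between cows was 208 under median centring and 248 with a trended robust prior, against 105, and 13 to 131 with each replicate left out, while 0 members passed in each. The background count of 10 member probe sets was 8 or 10 at the other levels. At the median of the genes restricted to other tissues, 5.69, it was 5.

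Of 221 differences of named probe sets under alternatives, 24 changed sign, 15 of them without cows 2 and 4. Those 15 were CXCL8 at -0.07, CXCL2 at -0.09, CXCL5 at -0.12, CXCL10 at -0.04, CCL2 at -0.22 and -0.21, CCL5 at -0.00369, IL1B (brighter) at -0.08, TNF at -0.07, CCL14 at 0.06, CCL26 at 0.02, IL18 at -0.02, CSF1 at -0.02, IL10RB at -0.01 and ACKR3 at -0.10. IL1B was also at -0.01 under median centring and repeated quantile normalization. With each replicate left out, the difference spanned -0.05 to 0.07 for CXCL2, -0.06 to 0.27 for CXCL10, -0.11 to 0.08 for IL1B, -0.08 to 0.14 for TNF and -0.01 to 0.57 for ACKR3. The cause was not tested. Signal near background limits 10 of the 13 probe sets.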

Other observations

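Several relatives of the members, named after their values were seen, also had their widest differences in cow 4. IL1RN, the antagonist that blocks IL1A and IL1B at their receptor, differed by -0.52, 0.70, -0.17 and 1.94 log2 in cows 1 to 4. The mean level of IL1RN, 7.27, was barely above the background level. Only the full glands of cows 2 and 4, at 7.87 and 9.04, were above that level. Both IL1A probe sets, which lay near background, stayed within 0.32 of 0 in each cow. CXCL14, a chemokine of epithelia, differed by -0.07, 0.47, -0.18 and 1.17, and CCL21, the lymphatic chemokine that attracts dendritic cells and naive T cells, by -0.44, 0.40, 0.04 and 0.73. CXCL11, which shares the receptor CXCR3 with CXCL10 and lies next to it in the RefSeq gene order, went the other way from CXCL10 in cows 1 and 4, at 0.27 and -0.91 against -0.47 and 0.51. None of these passed in limma (adjusted p = 0.993 each).

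The calcium-binding protein S100A12, a product of neutrophils and monocytes, differed by -0.75, -0.12, -0.74 and 1.55 in cows 1 to 4 (adjusted p = 0.999 in limma). S100A8 differed by 2.21 in cow 2 and by 0.57 in cow 4, and by -0.08 and -0.77 in cows 1 and 3 (adjusted p = 0.993 in limma). Its mean of 6.47 was near background, and the full gland of cow 2, at 8.20, was the only array above 7.21.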
